A study of Mus musculus with 13 samples.

Results

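The mitosis and spindle genes are 36 mouse genes whose products carry a cell through division. The set was chosen by name, with earlier results of these data known. Each was read from the array's set of probes for that gene alone (a transcript cluster), and 35 of the 36 had such a cluster, among 19938 named genes in all. For Ccnb1, which encodes cyclin B1, the annotation used here gave no cluster of its own, and the gene was not analysed. Top2a had a second cluster, which read between 3.31 and 4.13 on the log2 scale on all 13 arrays, and the brighter cluster was kept.

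RNA of mouse rectum was measured on 13 Affymetrix gene arrays, 1 for each piece of tissue. The adenocarcinomas (replicates 1, 2, 3, 4 and 6, mice of 53, 60, 60, 64 and 80 weeks) and the inflamed mucosa beside such tumours (replicates 1 to 4, mice of 53, 60, 60 and 64 weeks) came from rectal prolapses of α6fl/fl Villin-Cre mice, in which Cre driven by the Villin promoter of intestinal epithelium acts on floxed alleles of the α6 integrin gene. Normal mucosa (replicates 1, 2, 4 and 6, mice of 53, 60, 64 and 70 weeks) came from mice that one label calls control, although the genotype label reads α6fl/fl Villin-Cre for all 13 samples. Replicates 1 and 6 were from females and replicates 2, 3 and 4 from males. Tumour and inflamed mucosa were cut out of frozen sections, which hold stroma as well as epithelium, whereas normal mucosa was scraped from the opened rectum, so the way of collecting and the group cannot be told apart in either comparison with normal mucosa. No label says whether pieces with 1 replicate number came from 1 mouse. The p-values measure the spread between these pieces, and so few arrays limit the precision. The median of an array ranged from 6.41 to 6.59, and correlations of arrays with each other from 0.943 to 0.990. Markers of gut epithelium were present on every array: Epcam lay between 11.54 and 11.996, Vil1 between 10.85 and 11.76, Cdx2 between 8.51 and 9.80 and Cdh1 between 12.15 and 12.73.

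Entry into mitosis is driven by the kinase Cdk1 with its cyclin partners, and the transcription factor Foxm1 helps switch on many of the genes used at that stage. Kinetochores then attach the chromosomes to spindle microtubules, a checkpoint holds back the anaphase-promoting complex until every chromosome is attached, and kinesins, the chromosomal passenger complex and the cytokinesis proteins separate the daughter cells. In the large bowel, dividing cells lie in the lower part of the crypts, and the absorptive cells nearer the surface have left the cell cycle.

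All 35 measured genes had a higher mean in adenocarcinoma than in normal mucosa and a higher mean in inflamed than in normal mucosa. Of them, 24 (68.6%) passed the test in adenocarcinoma against 7 (20%) in inflamed mucosa. A gene is called higher or lower where its Benjamini-Hochberg adjusted p over all 19938 genes, from limma's moderated test, was below 0.05. Of all genes, 16.4% were called higher and 19.4% lower in adenocarcinoma than in normal mucosa, and 13.7% higher and 13% lower in inflamed than in normal mucosa. In inflamed mucosa the set's 20% was thus not far from the 13.7% of all genes. None of the 35 was called in adenocarcinoma against inflamed mucosa, where 2.91% of all genes were called higher and 4.21% lower. The genes were at least doubled in adenocarcinoma over normal mucosa in 13 cases, and the fold differences ran from 1.28 (Ndc80) to 2.81 (Anln). The median log2 difference over the 35 genes was 0.87 for adenocarcinoma minus normal mucosa, 0.66 for inflamed minus normal mucosa and 0.22 for adenocarcinoma minus inflamed mucosa, beside -0.10, -0.09 and -0.01 over all genes. Without normal mucosa 2 the first and second were 0.54 and 0.38, and without inflamed mucosa 2 the third was -0.02. Both comparisons with normal mucosa use the same 4 normal arrays. In pieces of tissue, fewer dividing cells and less RNA of these genes in each cell cannot be told apart.

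The mean log2 level of the 35 genes was 8.08, 7.94, 8.07, 8.34 and 8.10 in adenocarcinomas 1, 2, 3, 4 and 6, a group mean of 8.11 ± 0.14 (SD, n = 5). It was 8.01, 7.15, 8.24 and 8.17 in inflamed mucosa 1 to 4, a mean of 7.89 ± 0.50 (n = 4). In normal mucosa 1, 2, 4 and 6 it was 7.18, 6.38, 7.58 and 7.77, a mean of 7.23 ± 0.62 (n = 4). Every adenocarcinoma therefore lay above every normal piece, 3 inflamed pieces lay within the range of the adenocarcinomas, and inflamed mucosa 2 lay among the normal pieces. The same 2 pieces stood apart gene by gene: inflamed mucosa 2 was the lowest of its group for 34 of the 35 genes, and normal mucosa 2 for 33. Among adenocarcinomas, number 4 was highest for 27 genes and number 2 lowest for 21.

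**Figure D1:**
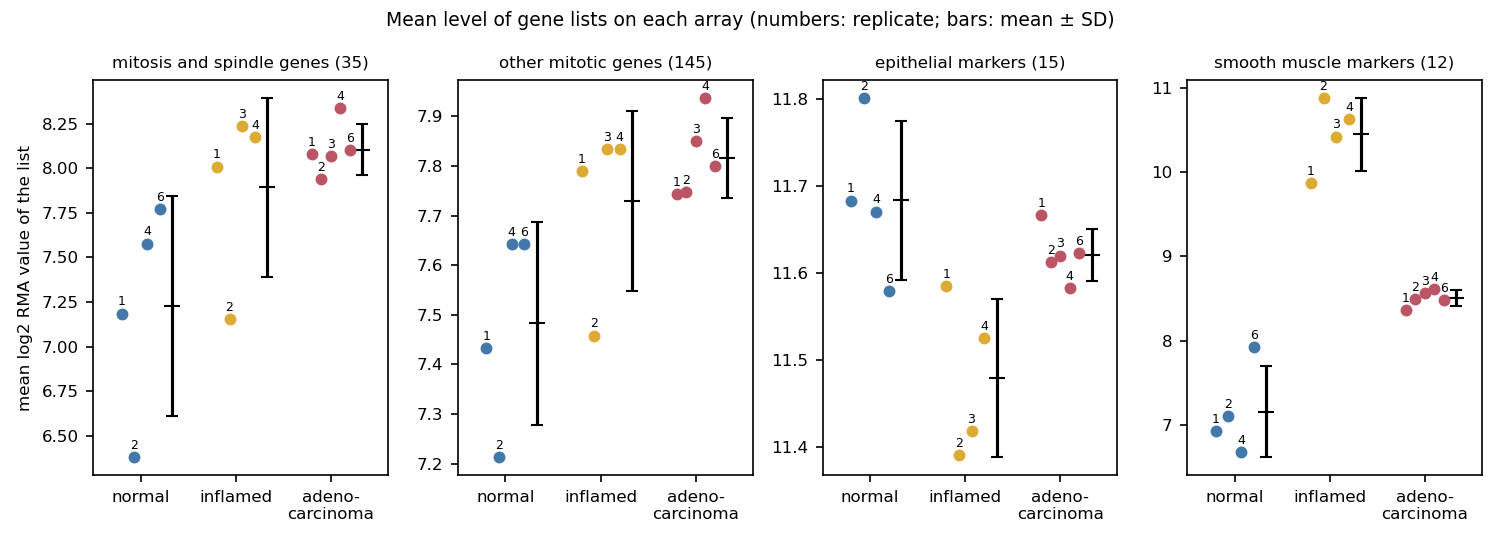
Mean log2 RMA value of 4 gene lists on each of the 13 arrays (points, numbered by replicate), with the mean and SD of each group as a bar, each panel on its own axis. For the 35 mitosis and spindle genes the adenocarcinomas sit between 7.94 and 8.34, normal mucosa between 6.38 and 7.77, and inflamed mucosa 2, at 7.15, lies apart from the other inflamed pieces.

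The pieces differed in their cell makeup as well, and the part of that in the mitotic levels was not tested. Smooth muscle markers (12 of 12 measured) had a mean log2 level of 6.68 to 7.92 in normal mucosa, 8.36 to 8.61 in adenocarcinoma and 9.86 to 10.88 in inflamed mucosa, highest in inflamed mucosa 2. The epithelial list (15 of 16 measured) lay between 11.58 and 11.80 in normal mucosa, highest in normal mucosa 2, between 11.58 and 11.67 in adenocarcinoma, and between 11.39 and 11.58 in inflamed mucosa, lowest in inflamed mucosa 2. Markers of mature colonocytes (15 of 15 measured) were at 11.97 to 12.17 in normal mucosa, 10.95 to 11.22 in inflamed mucosa and 8.80 to 9.86 in adenocarcinoma, and 14 of them were called lower in adenocarcinoma than in normal mucosa. Fibroblast markers (12 of 12) ranged from 7.03 to 7.98 in normal mucosa against 9.22 to 9.69 in inflamed mucosa and 9.33 to 9.82 in adenocarcinoma, and endothelial markers (12 of 12) from 6.15 to 6.69 against 8.05 to 8.65 and 8.43 to 8.74. Neutrophil markers (12 of 12) lay at 6.18 to 7.48, 6.39 to 6.66 and 7.74 to 9.05 in the same order, macrophage markers (11 of 12) at 6.82 to 7.90, 8.59 to 8.98 and 8.06 to 8.82, T cell markers (9 of 12) at 6.17 to 7.46, 6.43 to 6.75 and 5.97 to 6.29, and markers of B and plasma cells (11 of 12) at 7.40 to 7.96, 8.77 to 9.49 and 7.69 to 8.87. Log2 values of this kind have no 0, so none of these markers was read as absent. With each array set to the same epithelial marker level, an alternative scaling, the median of the 35 genes was 0.93 for adenocarcinoma minus normal mucosa, 0.86 for inflamed minus normal mucosa and 0.08 for adenocarcinoma minus inflamed mucosa.

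The 35 genes varied together from array to array. Across the 13 arrays, the Pearson correlation of each gene with the mean of the others ran from 0.596 for Bub3 to 0.990 for Tpx2, with a median of 0.964, and 29 genes lay above 0.9. With the group means taken off, the median was 0.955 and the range 0.155 to 0.989. These values are descriptions over arrays that share their groups and the 2 low pieces. Of all genes outside the set, the 10 that followed the mean of the 35 most closely over the 13 arrays were Knl1 (0.978), Ncapg, Ncaph, Melk, Kif22, Kif20b, Cdca5, Ckap2l, Kif18b and Kif18a (0.961), all of them on the wider lists of mitotic genes described further on.

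**Figure D2:**
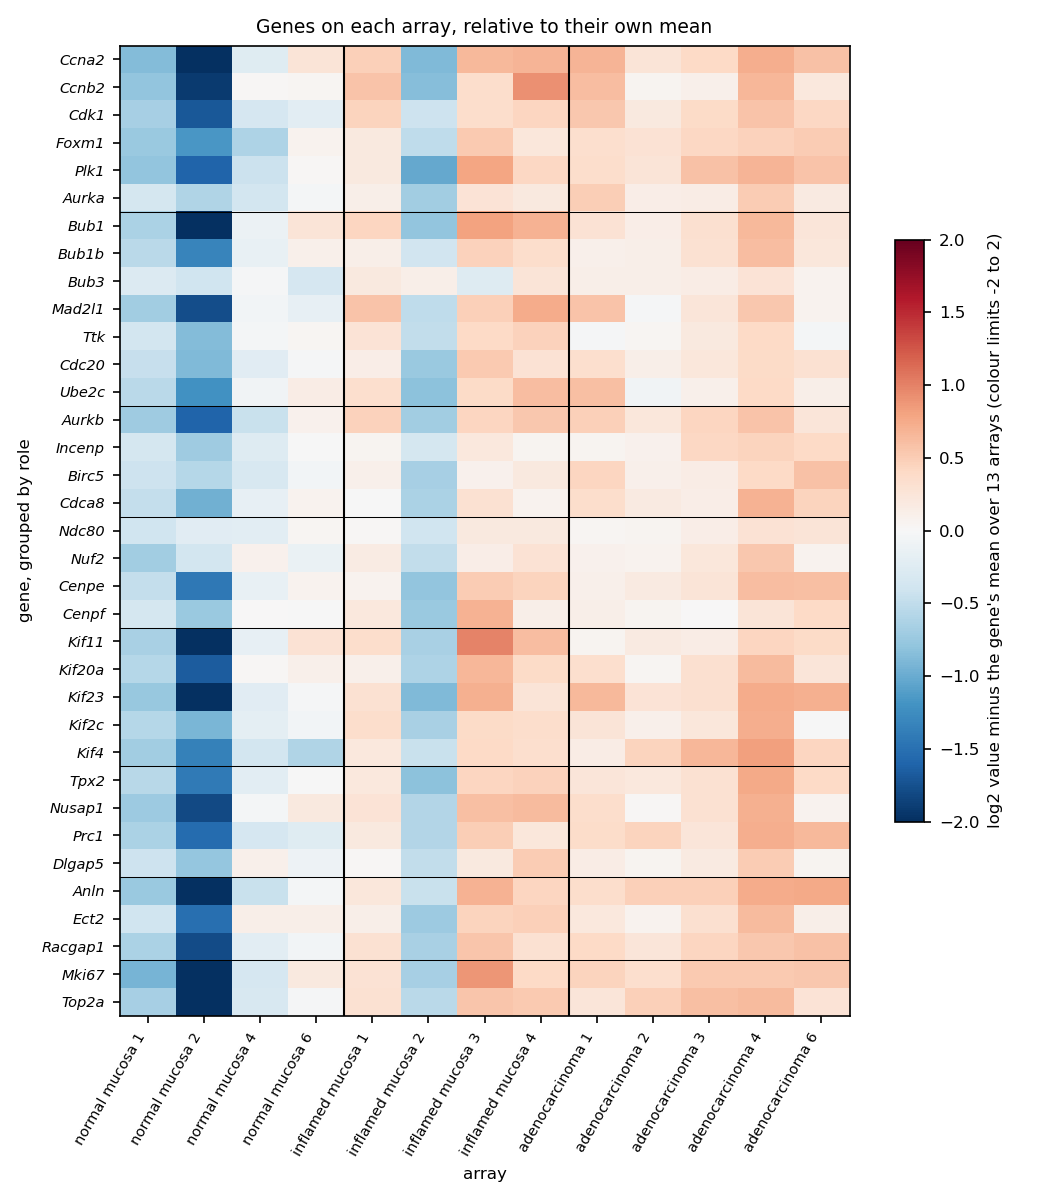
Log2 value of each of the 35 genes (rows, in blocks by role) on each of the 13 arrays (columns), minus the gene's own mean over all arrays, with colours limited to -2 and 2. Normal mucosa 2 is the darkest blue column and inflamed mucosa 2 is blue among the red inflamed columns, while the 5 adenocarcinoma columns are alike, with a median SD of 0.19 over the genes.

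Because these genes varied together, the DNA just before their starts was read for letters they might share. The sequences are those of RefSeq for mouse assembly GRCm38.p6, with a window of 300 bases for each start, from 250 before to 50 after it. They were matched by symbol for 28 of the 35 genes. A gene with several starts was counted where any of its windows held the letters, so more DNA was searched for such genes. Ccna2, Foxm1, Tpx2, Incenp, Aurkb, Kif20a and Dlgap5 had no entry. TTTGAA is the core of the cell cycle genes homology region, an element through which the MuvB complex acts on late cell cycle genes, and CCAAT is the box bound by the factor NF-Y. Searched on both strands, TTTGAA was found for 22 of the 28 genes (78.6%), beside 17.3% of the 15614 genes on the arrays that had a window. CCAAT was found in 21 (75.0%, beside 41.7% of all), and both in 19 (67.9%, beside 6.89%). TTTAAA, another form of the core, was found in 7 (25.0%, beside 13.4%). Over all genes called higher in adenocarcinoma than in normal mucosa the share with TTTGAA was 15.5%, and over the wider lists of mitotic genes it was 38.8% (47 of 121). The letters TTTGAA were not in the windows of Birc5, Bub1, Cenpe, Mad2l1, Nuf2 and Nusap1, whose median difference between adenocarcinoma and normal mucosa was 0.87, with 3 of 6 called, against 0.81 and 16 of 22 for genes that have it. A match is a description of the letters only.

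The 6 stretches printed here show how the 2 motifs lie near the starts of genes from different steps of mitosis, each on the gene's strand from 130 bases before to 20 after the start. Capitals mark TTTGAA and CCAAT on either strand (TTCAAA and ATTGG where they lie on the other strand), and no 2 matches overlap. Cdk1 (chr10:69352893-69353042, minus strand) has 2 of each, Ccnb2 (chr9:70421535-70421684, minus strand) has 3 CCAAT boxes and its TTTGAA just after the start, and Cdc20 (chr4:118437324-118437473, minus strand) and Prc1 (chr7:80294321-80294470, plus strand, the first of 2 starts in the table) have TTTGAA 18 and 5 bases before the start. Mki67 (chr7:135716360-135716509, minus strand) has TTTGAA at 2 places and no CCAAT in this stretch. Bub3 (chr7:131560240-131560389, plus strand, the first of 2 starts) carries the motif on the other strand.
Cdk1: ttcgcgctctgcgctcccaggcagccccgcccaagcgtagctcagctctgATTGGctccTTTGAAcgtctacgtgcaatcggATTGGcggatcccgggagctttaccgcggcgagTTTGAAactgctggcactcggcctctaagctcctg
Ccnb2: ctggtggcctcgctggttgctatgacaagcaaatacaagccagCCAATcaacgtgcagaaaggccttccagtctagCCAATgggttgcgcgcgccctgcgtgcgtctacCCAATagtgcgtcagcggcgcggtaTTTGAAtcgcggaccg
Cdc20: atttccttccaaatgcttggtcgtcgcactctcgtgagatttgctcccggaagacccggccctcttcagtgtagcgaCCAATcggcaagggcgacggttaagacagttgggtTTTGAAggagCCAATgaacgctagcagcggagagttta
Prc1: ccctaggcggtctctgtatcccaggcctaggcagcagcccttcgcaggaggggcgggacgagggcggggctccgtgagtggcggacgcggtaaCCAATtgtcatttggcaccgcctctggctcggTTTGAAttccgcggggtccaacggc
Mki67: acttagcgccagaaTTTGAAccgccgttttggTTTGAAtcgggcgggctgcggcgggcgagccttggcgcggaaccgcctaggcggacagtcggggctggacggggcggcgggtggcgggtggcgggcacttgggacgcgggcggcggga
Bub3: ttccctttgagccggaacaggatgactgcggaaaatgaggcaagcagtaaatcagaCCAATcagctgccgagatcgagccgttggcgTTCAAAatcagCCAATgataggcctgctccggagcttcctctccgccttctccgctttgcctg

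Among the genes of mitotic entry, 5 of the 6 measured were called higher in adenocarcinoma than in normal mucosa and 2 in inflamed mucosa. Counts for this and the following role groups stand beside 16.4% of all genes called higher in adenocarcinoma and 13.7% in inflamed mucosa. The groups are small, so a single call moves their shares a great deal. Foxm1, the transcription factor of the group, measured 7.65, 7.61, 7.74, 7.78 and 7.83 in adenocarcinomas 1, 2, 3, 4 and 6, 7.52, 6.81, 7.84 and 7.56 in inflamed mucosa 1 to 4, and 6.58, 6.16, 6.70 and 7.40 in normal mucosa 1, 2, 4 and 6. All adenocarcinomas lay above all normal pieces, and inflamed mucosa 2 fell within the normal range. Foxm1 rose by 1.02 ± 0.22 (log2 difference ± SE, n = 5 and 4, 2.02-fold, limma, adjusted p = 0.00316) in adenocarcinoma over normal mucosa, and by 0.72 ± 0.23 (n = 4 and 4, adjusted p = 0.0362) in inflamed over normal mucosa. Cdk1, the kinase that starts mitosis, read 9.36, 9.01, 9.20, 9.38 and 9.23 in the adenocarcinomas, 9.25, 8.40, 9.17 and 9.24 in inflamed mucosa and 8.15, 7.11, 8.47 and 8.61 in normal mucosa, in the same order of replicates as for Foxm1, which is kept from here on. Again the adenocarcinomas and normal pieces did not overlap, and inflamed mucosa 2 was the only inflamed piece below the highest normal piece. The rise of Cdk1 was 1.15 ± 0.26 in adenocarcinoma (2.22-fold, limma, adjusted p = 0.00398) and 0.93 ± 0.27 in inflamed mucosa (adjusted p = 0.0242). Ccna2, encoding cyclin A2, had one of the larger differences in adenocarcinoma, 1.42 ± 0.48 (limma, adjusted p = 0.0338), although normal mucosa 6 at 9.72 reached the lowest adenocarcinoma, also at 9.72. Plk1, the polo-like kinase of spindle assembly, rose by 1.19 ± 0.34 and Aurka, the centrosomal Aurora kinase, by 0.63 ± 0.18 in adenocarcinoma (limma, adjusted p = 0.0149 and 0.0169). Ccnb2, encoding cyclin B2, differed by 0.98 ± 0.39 and did not pass (adjusted p = 0.0648), although its adenocarcinomas and normal pieces did not overlap. For the last 4 genes the inflamed minus normal differences lay between 0.32 and 1.12, and none was called.

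The spindle checkpoint and anaphase genes gave 4 calls of 7 in adenocarcinoma over normal mucosa and 2 in inflamed mucosa. Bub3, which brings the checkpoint kinases to kinetochores, measured 9.53, 9.53, 9.57, 9.69 and 9.48 in adenocarcinoma, 9.62, 9.53, 9.15 and 9.68 in inflamed mucosa and 9.14, 9.02, 9.40 and 9.08 in normal mucosa. Here inflamed mucosa 3 and not inflamed mucosa 2 was the low inflamed piece, and the adenocarcinomas stayed above all normal pieces. Bub3 rose by 0.40 ± 0.11 (1.32-fold, limma, adjusted p = 0.0136) in adenocarcinoma and by 0.33 ± 0.12 (adjusted p = 0.0496) in inflamed mucosa, small changes of a gene with little spread. Bub1b, the checkpoint protein that holds the anaphase-promoting complex, read 7.66, 7.67, 7.86, 8.17 and 7.78 in adenocarcinoma, 7.68, 7.16, 8.01 and 7.90 in inflamed mucosa and 7.02, 6.23, 7.40 and 7.66 in normal mucosa. Normal mucosa 6 reached the lowest adenocarcinoma, and the difference of 0.75 ± 0.25 passed (1.69-fold, limma, adjusted p = 0.0304). Mad2l1, another subunit of the checkpoint complex, rose in both tissues, by 0.95 ± 0.32 in adenocarcinoma and 0.99 ± 0.34 in inflamed mucosa (limma, adjusted p = 0.0354 and 0.0449). Cdc20, the activator of the anaphase-promoting complex, rose by 0.67 ± 0.22 in adenocarcinoma (adjusted p = 0.0306, limma) and differed by 0.45 ± 0.23 in inflamed mucosa, which did not pass. Bub1 (1.02 ± 0.43), the checkpoint kinase Ttk (0.43 ± 0.21) and Ube2c (0.64 ± 0.30), the ubiquitin-conjugating enzyme of the same complex, were not called in adenocarcinoma (limma, adjusted p = 0.0779, 0.122 and 0.105).

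All 4 members of the chromosomal passenger complex were called higher in adenocarcinoma than in normal mucosa, and none in inflamed mucosa, a contrast between the tissues that did not itself pass. This complex corrects faulty attachments and later directs cytokinesis. Incenp, its scaffold, measured 7.35, 7.38, 7.72, 7.75 and 7.70 in adenocarcinoma, 7.35, 6.95, 7.51 and 7.36 in inflamed mucosa and 6.94, 6.59, 7.04 and 7.29 in normal mucosa. The adenocarcinomas lay above the normal pieces, and 1 of the 4 inflamed pieces, number 2, lay within the normal range. Incenp rose by 0.61 ± 0.15 in adenocarcinoma (1.53-fold, limma, adjusted p = 0.00671). Birc5, which encodes survivin, the subunit that docks the complex on chromatin, read 7.63, 7.31, 7.35, 7.60 and 7.78 in adenocarcinoma, 7.30, 6.53, 7.29 and 7.39 in inflamed mucosa and 6.79, 6.63, 6.89 and 7.14 in normal mucosa. Inflamed mucosa 2 was lower for Birc5 than every normal piece, and the other inflamed pieces lay around the low end of the adenocarcinomas. Its rise in adenocarcinoma over normal mucosa was 0.67 ± 0.17 (1.59-fold, limma, adjusted p = 0.00796). Cdca8, the subunit borealin, read 7.28, 7.12, 7.06, 7.64 and 7.38 in adenocarcinoma, 6.92, 6.30, 7.23 and 7.01 in inflamed mucosa and 6.46, 5.98, 6.77 and 7.01 in normal mucosa. Inflamed mucosa 3 reached the adenocarcinoma range and inflamed mucosa 2 was below 3 of the 4 normal pieces. Cdca8 rose by 0.74 ± 0.21 in adenocarcinoma (limma, adjusted p = 0.0161), and the kinase of the complex, Aurkb, rose by 1.06 ± 0.30 (adjusted p = 0.0145). In inflamed over normal mucosa Aurkb differed by 0.85 ± 0.31 (limma, adjusted p = 0.0589) and the other 3 by 0.27 to 0.33, with no call.

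Kinetochore genes had the lowest median difference of the role groups in adenocarcinoma over normal mucosa, 0.46, with 2 of 4 called, and none was called in inflamed mucosa. Cenpe, a motor that moves chromosomes to the middle of the spindle, measured 6.79, 6.86, 6.95, 7.31 and 7.30 in adenocarcinoma, 6.75, 5.90, 7.19 and 7.14 in inflamed mucosa and 6.21, 5.26, 6.54 and 6.76 in normal mucosa. The highest normal piece lay just under the lowest adenocarcinoma, and inflamed mucosa 2 and, barely, inflamed mucosa 1 were within the normal range. Cenpe rose by 0.85 ± 0.30 (1.80-fold, limma, adjusted p = 0.04). Ndc80, which grips the microtubule end, read 6.33, 6.34, 6.42, 6.58 and 6.55 in adenocarcinoma, 6.31, 5.90, 6.49 and 6.48 in inflamed mucosa and 5.89, 6.07, 6.08 and 6.34 in normal mucosa. Normal mucosa 6 overlapped the adenocarcinomas, normal mucosa 1 and not 2 was the lowest normal piece, and the call was close to the threshold (0.35 ± 0.13, limma, adjusted p = 0.0456). Nuf2, the partner of Ndc80, differed by 0.48 ± 0.18 and Cenpf, another large kinetochore protein, by 0.44 ± 0.23, and both missed the threshold (limma, adjusted p = 0.052 and 0.147).

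Of the mitotic kinesins, 3 of 5 were called higher in adenocarcinoma and 1 in inflamed mucosa. Kif4, a chromosome-bound kinesin that shapes the central spindle, had the smallest adjusted p of all 35 genes in both comparisons with normal mucosa. It measured 6.58, 6.87, 7.09, 7.24 and 6.85 in adenocarcinoma, 6.64, 5.98, 6.82 and 6.76 in inflamed mucosa and 5.73, 5.07, 6.05 and 5.82 in normal mucosa. The lowest adenocarcinoma stood 0.53 above the highest normal piece, and only inflamed mucosa 2 among the inflamed pieces reached the normal range. Kif4 rose by 1.26 ± 0.21 in adenocarcinoma (2.39-fold, limma, adjusted p = 0.000433) and by 0.88 ± 0.22 in inflamed mucosa (1.84-fold, adjusted p = 0.0103). Kif23, the motor of centralspindlin, which marks the division plane, read 8.997, 8.61, 8.66, 9.09 and 9.05 in adenocarcinoma, 8.64, 7.46, 9.06 and 8.61 in inflamed mucosa and 7.59, 6.26, 8.12 and 8.32 in normal mucosa. Normal mucosa 2 was more than 1 log2 unit under every other normal piece. Kif23 rose by 1.31 ± 0.38 in adenocarcinoma (2.48-fold, limma, adjusted p = 0.0158), and its inflamed minus normal difference of 0.87 ± 0.40 was not called (adjusted p = 0.113). Kif2c, which shortens microtubules, rose by 0.69 ± 0.23 in adenocarcinoma (limma, adjusted p = 0.033). Kif11, which pushes the spindle poles apart, and Kif20a, a transporter of the central spindle, differed by 0.87 ± 0.39 and 0.84 ± 0.32 and did not pass (limma, adjusted p = 0.0922 and 0.0568).

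Genes for microtubule-binding proteins of the spindle gave 2 calls of 4 in adenocarcinoma and 1 in inflamed mucosa. Prc1, which bundles microtubules between the separating chromosomes, measured 7.17, 7.24, 7.04, 7.52 and 7.45 in adenocarcinoma, 6.99, 6.21, 7.28 and 7.01 in inflamed mucosa and 6.15, 5.24, 6.45 and 6.55 in normal mucosa. The lowest adenocarcinoma stood 0.49 above the highest normal piece, and inflamed mucosa 2 sat with the normal pieces. Prc1 rose by 1.18 ± 0.25 in adenocarcinoma (2.27-fold, limma, adjusted p = 0.0028) and by 0.77 ± 0.27 in inflamed mucosa (adjusted p = 0.0474). Tpx2, the spindle activator of the Aurora A kinase, read 7.51, 7.49, 7.57, 8.04 and 7.67 in adenocarcinoma, 7.48, 6.45, 7.71 and 7.74 in inflamed mucosa and 6.72, 5.86, 7.07 and 7.27 in normal mucosa. The groups of adenocarcinoma and normal mucosa did not overlap, and Tpx2 rose by 0.93 ± 0.29 (1.90-fold, limma, adjusted p = 0.0249). Nusap1, which stabilises spindle microtubules, differed by 0.89 ± 0.35 and Dlgap5, a protein of the fibres at kinetochores, by 0.48 ± 0.20, with no call (limma, adjusted p = 0.0632 and 0.0717).

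Of the cytokinesis genes, 2 of 3 were called higher in adenocarcinoma and 1 in inflamed mucosa. Anln encodes anillin, the scaffold of the contractile ring, and it measured 7.82, 7.94, 7.94, 8.21 and 8.22 in adenocarcinoma, 7.69, 7.02, 8.17 and 7.90 in inflamed mucosa and 6.72, 4.999, 7.02 and 7.42 in normal mucosa. Normal mucosa 2 was far below the other normal pieces, and the remaining normal pieces still lay under every adenocarcinoma. Anln rose by 1.49 ± 0.38 in adenocarcinoma (2.81-fold, limma, adjusted p = 0.00817) and by 1.15 ± 0.40 in inflamed mucosa (2.23-fold, adjusted p = 0.0466), the largest differences of the 35 genes with all arrays. Without normal mucosa 2 its differences were 0.97 and 0.64, the second no longer called (limma, adjusted p = 0.0787), and Kif4 had the largest, at 1.06 and 0.68. Ccna2 had the largest in inflamed mucosa under 6 of 20 alternatives, and in adenocarcinoma under 1 of 21. Racgap1, the partner of Kif23 in centralspindlin, read 8.06, 7.91, 8.09, 8.20 and 8.25 in adenocarcinoma, 7.96, 7.01, 8.21 and 7.96 in inflamed mucosa and 7.03, 5.88, 7.45 and 7.61 in normal mucosa. Its adenocarcinomas and normal pieces did not overlap, with a rise of 1.11 ± 0.31 (2.16-fold, limma, adjusted p = 0.0127) and an uncalled difference of 0.80 ± 0.32 in inflamed mucosa. Ect2, which activates the small GTPase of the contractile ring, differed by 0.69 ± 0.32 in adenocarcinoma and was not called (limma, adjusted p = 0.0992).

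Both remaining genes, the proliferation marker Mki67 and the DNA topoisomerase Top2a, were called higher in adenocarcinoma and neither in inflamed mucosa. Mki67, whose protein coats mitotic chromosomes and is the usual stain for cycling cells, measured 9.91, 9.80, 9.98, 9.99 and 10.01 in adenocarcinoma, 9.75, 8.81, 10.35 and 9.87 in inflamed mucosa and 8.54, 7.25, 9.14 and 9.66 in normal mucosa. Inflamed mucosa 3 had the highest Mki67 of all 13 arrays, and the adenocarcinomas spanned the narrow range from 9.80 to 10.01. The rise in adenocarcinoma over normal mucosa was 1.29 ± 0.39 (2.45-fold, limma, adjusted p = 0.02), and the inflamed minus normal difference was 1.05 ± 0.41 (2.07-fold, adjusted p = 0.0718). Top2a, which untangles sister chromosomes, read 8.46, 8.69, 8.81, 8.86 and 8.49 in adenocarcinoma, 8.52, 7.67, 8.77 and 8.74 in inflamed mucosa and 7.55, 6.16, 7.89 and 8.19 in normal mucosa. Every adenocarcinoma was above the highest normal piece, the rise was 1.21 ± 0.34 (2.32-fold, limma, adjusted p = 0.0132), and the inflamed minus normal difference of 0.98 ± 0.35 just missed the threshold (adjusted p = 0.0551).

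Across the set, every adenocarcinoma lay above every normal piece for 22 of the 35 genes, where 13% of all genes showed such a separation. In inflamed against normal mucosa the same held for none of the 35, beside 12% of all genes. Inflamed mucosa 2 read no higher than the highest normal piece for 34 of the 35 genes, inflamed mucosa 1 for 5, inflamed mucosa 3 for 1 (Bub3) and inflamed mucosa 4 for none. At an unadjusted p under 0.05 (limma) the counts were 33 genes in adenocarcinoma and 21 in inflamed mucosa, all higher. The share of all genes at that unadjusted threshold is not given here, so these counts have no background. After adjustment, 35.8% and 26.7% of all genes were called in either direction, and the unadjusted shares cannot be smaller. The 7 genes called in inflamed mucosa (Kif4, Cdk1, Foxm1, Mad2l1, Anln, Prc1 and Bub3) were among the 24 called in adenocarcinoma. For the 17 genes called in adenocarcinoma alone, the difference between the 2 tissues was itself not called. On normal mucosa 2, Bub1 (4.90), Ttk (5.24), Cenpe (5.26), Kif4 (5.07), Prc1 (5.24) and Anln (5.00) read below 5.57. That was the highest value of Kdm5d on female arrays, the brightest of the transcripts checked as absent by sex. Xist on male arrays reached 5.37, but Uty and Eif2s3y on female arrays reached only 4.13 and 4.07, below all of these genes. Whether these genes were at background there was therefore not settled. No gene of the set read as low as 5.57 on another array.

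**Figure D3:**
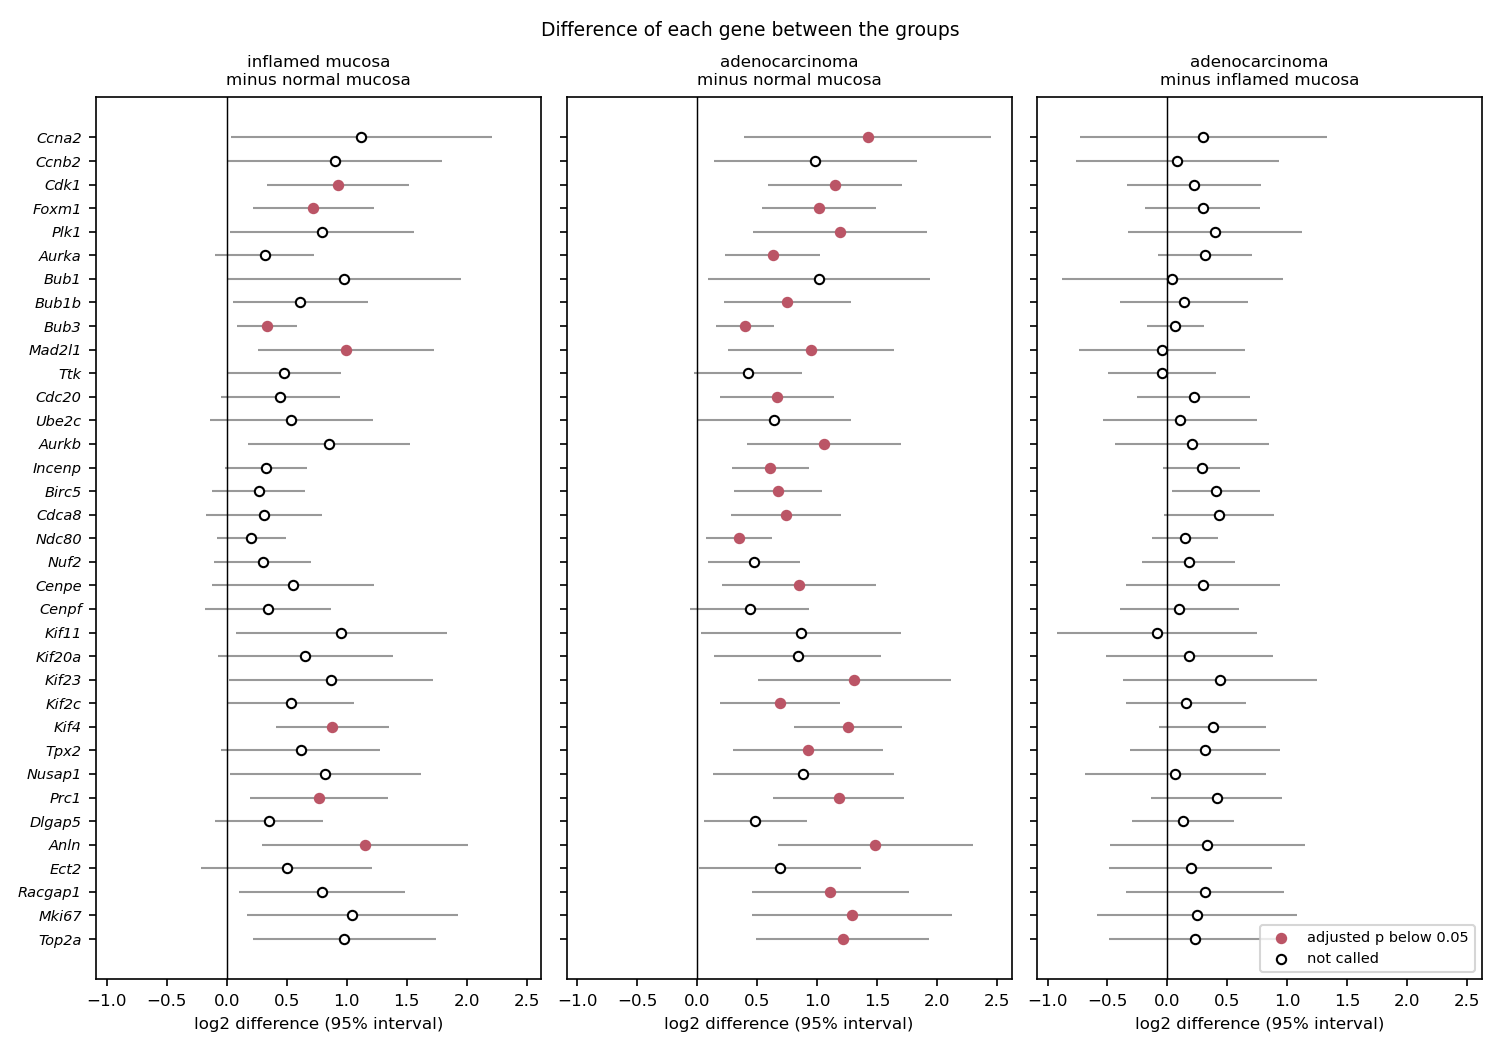
Log2 difference of each of the 35 genes between the groups (points) with its 95% interval (lines), from limma's fit of the 3 groups, in 3 panels on 1 scale. Filled points are called at an adjusted p below 0.05: 7 in inflamed minus normal mucosa, 24 in adenocarcinoma minus normal mucosa and none in adenocarcinoma minus inflamed mucosa.

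The calls in inflamed mucosa depended on single arrays. Without inflamed mucosa 2 they numbered 22 and without normal mucosa 6 they numbered 16. Without inflamed mucosa 1 or 4 only 1 was left, and without inflamed mucosa 3, normal mucosa 1 or normal mucosa 2 there were 2. In these settings 10.7% (without inflamed mucosa 2) to 13.9% (without normal mucosa 6) of all genes were called higher. Counts of 1 or 2 of 35 fall below the shares of all genes. The calls also depended on the adenocarcinoma arrays, because the 3 groups share 1 estimate of the spread. The SD was smallest in adenocarcinoma for each of the 35 genes, and that small spread entered the errors of inflamed minus normal mucosa. With the 2 groups alone, 1 gene was called higher in inflamed mucosa, beside 11% of all genes. In adenocarcinoma against normal mucosa the count fell to 12 without normal mucosa 2, and ranged from 16 to 29 without any other array. The share of all genes called higher was 14% without normal mucosa 2, and 14.2% to 16.4% without any other array. With inflamed mucosa 2 and normal mucosa 2 both left out, a setting chosen after seeing the data, 21 genes were called in inflamed mucosa (median 0.63) and 23 in adenocarcinoma (median 0.54), and 6 and 23 of these, respectively, were also called with all arrays. In that setting 8.35% and 13.8% of all genes were called higher. Without normal mucosa 2, differences shrank by more than 1.5 times for 8 of the 24 genes called in adenocarcinoma (Anln, Bub1b, Ccna2, Cenpe, Mad2l1, Mki67, Racgap1 and Top2a) and for 4 of the 7 called in inflamed mucosa (Anln, Cdk1, Mad2l1 and Prc1). Called under every alternative run in adenocarcinoma over normal mucosa were Anln, Aurkb, Birc5, Cdk1, Foxm1, Incenp, Kif23, Kif4, Prc1, Racgap1 and Top2a, and in inflamed over normal mucosa Kif4 alone. The replicate number was also used as a block over all arrays, although normal arrays were not taken as pairs by number. It gave 22 calls in inflamed mucosa and 33 in adenocarcinoma. Of all genes, 13% and 16.2% were called higher with that block. All 35 differences stayed above 0 in both comparisons under each alternative.

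**Figure D4:**
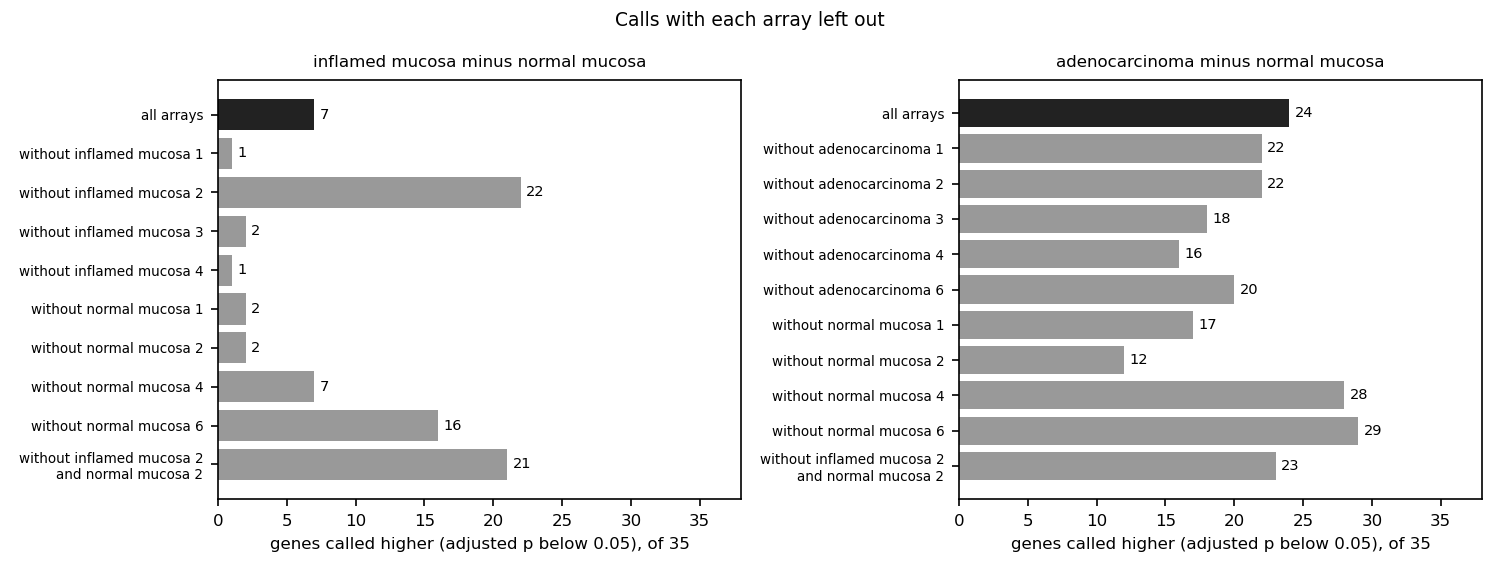
Number of the 35 genes called higher (bars, from 0) with all arrays and with each array left out, for inflamed minus normal mucosa and adenocarcinoma minus normal mucosa. The counts run from 1 to 22 in the left panel and from 12 to 29 in the right panel.

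Between adenocarcinoma and the inflamed mucosa around it no gene of the set passed the test. By limma 0 of the 35 genes were called, 1 (Birc5) had an unadjusted p under 0.05, and 32 had a higher mean in adenocarcinoma, while none separated the groups, beside 5.27% of all genes with every adenocarcinoma above every inflamed piece. The 3 smallest adjusted p-values belonged to the passenger complex: Birc5 differed by 0.41 ± 0.17 (95% interval 0.04 to 0.77, limma, adjusted p = 0.197), Cdca8 by 0.43 ± 0.21 (-0.03 to 0.89, adjusted p = 0.298) and Incenp by 0.29 ± 0.15 (-0.04 to 0.61, adjusted p = 0.335). Mki67 differed by 0.25 ± 0.39 with an interval of -0.59 to 1.08, which holds both no difference and a doubling. For 30 of the 35 genes the upper bound of the interval lay below a doubling. These errors and intervals come from the fit without a block and do not use the pairing by number. With same-numbered pieces as a block, 5 of the 35 genes had an unadjusted p under 0.05 (limma). The share of all genes at that unadjusted threshold is not given here, with or without the block. Neither this count nor the 1 without the block can therefore be read as an excess. With that block the median was 0.23 and 0 were called, beside 3.67% of all genes called higher. Kif11 (-0.09), Ttk (-0.05) and Mad2l1 (-0.05) had lower means in adenocarcinoma, far within their errors. Among same-numbered pieces, adenocarcinoma minus inflamed mucosa averaged 0.07 for number 1 (23 of 35 genes higher), 0.79 for number 2 (34 higher), -0.17 for number 3 (7 higher) and 0.16 for number 4 (28 higher). Without inflamed mucosa 2 the 35 signs split into 17 higher and 18 lower and the median was -0.02 in place of 0.22. Scaling to epithelial markers gave 24 higher and 11 lower.

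The groups also differed in how much their pieces varied. The median SD over the 35 genes was 0.19 in adenocarcinoma, 0.53 in inflamed mucosa and 0.63 in normal mucosa, beside 0.15, 0.14 and 0.19 over all genes. For each of the 35 genes the SD over all arrays of a group was smallest in adenocarcinoma. In inflamed mucosa much of the spread came from inflamed mucosa 2. The set means of inflamed mucosa 1, 3 and 4 were 8.01, 8.24 and 8.17, a narrower range than the 7.94 to 8.34 of the adenocarcinomas. SDs without inflamed mucosa 2 were not computed, so a smaller spread in adenocarcinoma than in the other inflamed pieces is not shown. Normal mucosa 2 averaged 0.85 below its group mean over the set and inflamed mucosa 2 averaged 0.74 below, whereas no adenocarcinoma was more than 0.23 from its group mean. Normal mucosa 2 and inflamed mucosa 2 are labelled as from males of 60 weeks, as are adenocarcinomas 2 and 3 and inflamed mucosa 3.

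The wider mitotic machinery was read from 6 lists of 150 further genes, 145 of them measured and none in the set of 36. In adenocarcinoma over normal mucosa 54 were called higher (37.2%, beside 16.4% of all genes) and 6 lower (4.14%, beside 19.4%), with a median of 0.30. In inflamed over normal mucosa 26 were called higher, which at 17.9% was near the 13.7% of all genes, and 4 lower (2.76%, beside 13%), with a median of 0.25. Adenocarcinoma against inflamed mucosa gave 3 higher and 2 lower (2.07% and 1.38%, beside 2.91% and 4.21%), with a median of 0.09, or 0.0072 without inflamed mucosa 2. Without normal mucosa 2 the count higher fell to 27 in adenocarcinoma and 11 in inflamed mucosa, and without inflamed mucosa 2 or normal mucosa 6 the latter was 40 or 41. Of all genes, 14% and 11% were called higher without normal mucosa 2. In inflamed mucosa the share was 10.7% without inflamed mucosa 2 and 13.9% without normal mucosa 6. Single lists had 14.3% (cytokinesis) to 55% (condensin and cohesin) of their genes called higher in adenocarcinoma, and 4% (mitotic entry) to 28.6% (checkpoint and anaphase-promoting complex) in inflamed mucosa.

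Kinetochore and centromere genes gave 11 higher calls of 34 in adenocarcinoma (32.4%, beside 16.4% of all genes) and 5 in inflamed mucosa. The latter share (14.7%) was near that of all genes (13.7%), and there was no call lower. Zwint, which links the outer kinetochore to the checkpoint, rose by 0.54 ± 0.10 in adenocarcinoma and 0.64 ± 0.11 in inflamed mucosa (limma, adjusted p = 0.00129 and 0.000947). Mis18a, which helps load the centromere histone, stood 0.48 ± 0.11 higher in adenocarcinoma than in normal mucosa and 0.40 ± 0.11 higher than in inflamed mucosa (adjusted p = 0.00388 and 0.0384, limma). Condensin and cohesin genes gave 11 and 5 calls of 20, all higher (55% and 25%, beside 16.4% and 13.7% of all genes). Smc2, the core of condensin, rose by 0.92 ± 0.22 in adenocarcinoma (1.90-fold, adjusted p = 0.00491, limma), and Pds5b, a regulator of cohesin, by 0.97 ± 0.23 in inflamed mucosa (adjusted p = 0.00817). Smc4, the partner of Smc2, rose by 0.60 ± 0.16 in inflamed mucosa (limma, adjusted p = 0.0153).

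Spindle motors and microtubule-binding proteins gave 12 higher calls of 31 in adenocarcinoma and 7 in inflamed mucosa. These shares were 38.7% and 22.6%, beside 16.4% and 13.7% of all genes. Cep55, a protein of the final cut between daughter cells, rose by 1.01 ± 0.20 in adenocarcinoma (2.02-fold, limma, adjusted p = 0.00145). Tubb5, a beta-tubulin, rose by 0.99 ± 0.20 in adenocarcinoma and 0.95 ± 0.22 in inflamed mucosa (limma, adjusted p = 0.00213 and 0.00594). Fam83d, which anchors a kinase on the spindle, rose by 0.81 ± 0.12 in inflamed mucosa (limma, adjusted p = 0.000274) and was lower in adenocarcinoma than there, with a difference of -0.46 ± 0.11 (limma, adjusted p = 0.0233). No gene of the set of 35 was called in that second comparison.

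Checkpoint genes and subunits of the anaphase-promoting complex gave 9 higher calls (42.9%) and 1 lower (4.76%) of 21 in adenocarcinoma. In inflamed mucosa they gave 6 higher (28.6%) and 2 lower (9.52%). Of all genes, 16.4% and 13.7% were called higher. The shares called lower were below those of all genes (19.4% and 13%). Anapc5, a subunit of the complex, rose by 0.72 ± 0.10 and 0.68 ± 0.11 (limma, adjusted p = 0.000132 and 0.000485). Ube2s, which extends the ubiquitin chains that the complex builds, stood 0.70 ± 0.11 higher in adenocarcinoma than in normal mucosa and 0.46 ± 0.11 higher than in inflamed mucosa (limma, adjusted p = 0.000373 and 0.0258). Mad2l1bp, which takes the Mad2l1 product out of the checkpoint complex, went the other way from Mad2l1: its difference was -0.80 ± 0.15 in adenocarcinoma and -0.80 ± 0.16 in inflamed mucosa (limma, adjusted p = 0.00132 and 0.00295). Fzr1, the activator that replaces Cdc20 after mitosis, was lower in inflamed mucosa, by -0.30 ± 0.10 (adjusted p = 0.039, limma).

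Regulators of mitotic entry gave 9 higher (36%) and 4 lower (16%) calls of 25 in adenocarcinoma, beside 16.4% and 19.4% of all genes. The share called lower was thus near that of all genes. In inflamed mucosa there was 1 of each (4%), below the shares of all genes (13.7% and 13%). Cks1b, a small subunit bound to cyclin-dependent kinases, rose by 1.15 ± 0.19 in adenocarcinoma (2.23-fold, limma, adjusted p = 0.000447) and by 0.90 ± 0.20 in inflamed mucosa (adjusted p = 0.00571). Mybl2, a transcription factor that works with the MuvB complex, was higher in adenocarcinoma than in inflamed mucosa by 0.48 ± 0.11 (adjusted p = 0.0155, limma). Lin52 and Lin37, subunits of that complex, were lower in adenocarcinoma than in normal mucosa, with differences of -0.69 ± 0.08 and -0.37 ± 0.12 (limma, adjusted p = 2.83e-05 and 0.0272). Lin52 was lower than in inflamed mucosa as well, at -0.54 ± 0.08 (adjusted p = 0.00151), and Lin37 was lower in inflamed than in normal mucosa, at -0.41 ± 0.12 (adjusted p = 0.0274, limma). Wee1, the kinase that restrains Cdk1, was lower in adenocarcinoma, at -0.75 ± 0.19, and so was Ensa, which encodes an inhibitor of the phosphatase opposing Cdk1, at -0.29 ± 0.10 (limma, adjusted p = 0.00774 and 0.0339).

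Further cytokinesis genes gave 2 higher calls and 1 lower of 14 in both tissues against normal mucosa, and the 14.3% called higher was near the share of all genes (16.4% in adenocarcinoma, 13.7% in inflamed mucosa). The 7.14% called lower was below the share of all genes (19.4% and 13%). Septin9, of the filaments at the cleavage furrow, rose by 0.50 ± 0.08 and 0.32 ± 0.09, and Arhgap11a, which acts on the small GTPase of the contractile ring, by 0.83 ± 0.16 and 0.61 ± 0.17 in adenocarcinoma and inflamed mucosa (limma, adjusted p = 0.000516, 0.0173, 0.0015 and 0.0182). Kif13b, a kinesin on this list, was lower in both, at -0.60 ± 0.16 and -0.53 ± 0.16 (limma, adjusted p = 0.00976 and 0.0299).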

How the data were processed

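The deposited log2 values came from RMA, run by the authors in Expression Console (version 1.1) after scanning with Command Console (AGCC, version 2.0), per the labels and the design text. The submitters' processing notes also list Partek, with no role. RMA brings all arrays to 1 distribution and compresses differences of dim genes. Clusters with 1 gene name (21789 of 35556) were kept, their symbols were brought up to date by Entrez identifier against RefSeq GRCm38.p6 (21698 matches), and the brightest cluster stood for each of 19938 genes. Clusters with several names (1621) or no entry (12146) were not used. No source used here names the build behind the array.

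Tests used limma 3.58.1 under R 4.3.3: a single lmFit and eBayes model of the 3 groups without a block, Benjamini-Hochberg adjustment over all genes, a threshold of 0.05, and 95% intervals. The script was tested on simulated data with changes of 0.5 (67 genes), 1 (67) and 2 (66) on the log2 scale. It found 40.3%, 89.6% and 100% of them for adenocarcinoma against normal mucosa, 35.8%, 85.1% and 98.5% for inflamed against normal mucosa, and 44.8%, 89.6% and 97% for adenocarcinoma against inflamed mucosa. The changed genes were taken at random from all genes, and each simulated gene varied independently. Median SDs in a group were 0.14 to 0.19 over all genes but 0.19 to 0.63 over the set, which varied together. These rates therefore do not hold for the set, where a missing call does not show that a gene is unchanged. The genes of the set, their roles, the wider lists and the marker lists were chosen with earlier results of these data known. Per-array values are given for the 2 genes of each role with the smallest adjusted p in adenocarcinoma minus normal mucosa and the 3 smallest of each comparison. From the wider lists come up to 3 called genes with the smallest adjusted p and those called lower.

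Tumour and inflamed arrays with 1 number share sex and age, and their deviations from group means were correlated (0.319, 0.198, 0.199 and 0.387), so they were taken as pairs. Correlations of normal arrays with arrays of their number were -0.126 to 0.0413, and these were not. These values are over all genes. Over the set, tumour with inflamed mucosa gave 0.645, 0.480, -0.083 and 0.424 for numbers 1 to 4. Inflamed with normal mucosa gave -0.029, 0.706 and 0.527 for numbers 1, 2 and 4. Adenocarcinoma with normal mucosa gave -0.177, 0.282, 0.362 and 0.115 for numbers 1, 2, 4 and 6. The values of the set thus do not separate the pairs taken from those not taken. Alternatives were a replicate block (fixed or random), sex and age, the 2 groups alone, leaving out the dimmest 30% of genes, 3 scalings, the mean of clusters, other variance models, array weights and leaving out each array.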

Additional observations from a re-analysis of the deposited data

Results flagged for a closer look

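In each group the highest and lowest array of every gene of the set, and of their mean, was compared with its neighbours, and 7 of the 108 groups of arrays so checked held an array whose gap to the nearest other was large for the group's range. Chance alone gives about 1 in 20. Inflamed mucosa 2 accounted for 6 of the 7, each time as the low array. Ccna2 read 8.57 there, against 9.93 to 10.14 on the other inflamed arrays, Cdk1 read 8.40 (others 9.17 to 9.25), and Aurka read 6.93 (others 7.75 to 7.90). Aurkb was at 8.25 on that array (others 9.39 to 9.50), Birc5 at 6.53 (others 7.29 to 7.39) and Kif2c at 6.17 (others 7.17 to 7.21). The seventh was Dlgap5 in adenocarcinoma 4, at 7.52 against 7.06 to 7.18 in the other adenocarcinomas. None of the 7 was a normal array, although normal mucosa 2 was the lowest of its group for 33 genes.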

How the results depend on the processing

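All 35 differences of the set kept their direction in both comparisons with normal mucosa under every alternative run, and under none of them was a gene of the set called lower, or called either way in adenocarcinoma against inflamed mucosa. Of the calls in inflamed over normal mucosa (7), the count became 22 with the replicate block over all arrays, 1 with the 2 groups alone, 2 with arrays centred on their medians, 4 with cyclic loess, 16 with arrays centred on epithelial markers, 3 with trend and robust variance, 3 with array weights, 1 to 22 with each array left out (1 without inflamed mucosa 1 or 4, 2 without inflamed mucosa 3 or normal mucosa 1 or 2, 16 without normal mucosa 6, 22 without inflamed mucosa 2), and 21 without inflamed mucosa 2 and normal mucosa 2, a setting chosen after seeing the data. Across these settings 8.35% (without the 2 arrays) to 23.7% (with epithelial markers) of all genes were called higher in inflamed mucosa. In adenocarcinoma over normal mucosa (24 calls) leaving out each array gave 12 to 29, the lowest without normal mucosa 2, and the replicate block over all arrays gave 33. Of all genes, 14% to 16.4% were called higher with each array left out, and 16.2% with the block. The pairing of tumour and inflamed arrays as a block gave 0 calls of the set, as without it.

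Over all genes, centring on medians moved the median by -0.19 in inflamed and -0.14 in adenocarcinoma against normal mucosa, and the calls from 2730 higher and 2592 lower to 1875 and 9510, and from 3266 and 3867 to 2491 and 8612. Centring on epithelial markers moved the median by 0.20 in inflamed over normal mucosa and -0.14 in adenocarcinoma against inflamed mucosa, and gave 4718 and 737 calls, 3491 and 2537, and, in adenocarcinoma against inflamed mucosa, 315 and 1918 in place of 581 and 839. Leaving out each array gave 2133 to 2762 higher and 1391 to 3024 lower in inflamed mucosa, 2543 to 4374 lower in adenocarcinoma, and 302 to 587 higher and 473 to 858 lower between the tissues. The lowest of these were without inflamed mucosa 2, apart from the count lower in adenocarcinoma than in normal mucosa, which was lowest without normal mucosa 2. Between adenocarcinoma and inflamed mucosa, the random block gave 938 higher and 1341 lower, and array weights 981 and 1315. Without inflamed mucosa 2 and normal mucosa 2 the counts were 1665 and 858 in inflamed mucosa, 2387 lower in adenocarcinoma, and 320 and 454 between the tissues.

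The wider lists (26 higher and 4 lower in inflamed mucosa, 54 and 6 in adenocarcinoma, 3 and 2 between the tissues) gave, in inflamed mucosa, 14 and 1 with the 2 groups alone, 12 and 21 with medians, 55 and 1 with epithelial markers, 16 and 2 with array weights, 11 to 41 and 1 to 9 with each array left out, and 1 lower without the 2 low arrays. In adenocarcinoma they gave 34 and 13 with medians and 27 to 69 higher with each array left out. All genes moved as well. In inflamed mucosa 11% of them were called higher with the 2 groups alone and 9.4% with medians. The share was 23.7% with epithelial markers, 12.8% with array weights and 10.7% to 13.9% with each array left out. In adenocarcinoma it was 12.5% with medians and 14% to 16.4% with each array left out. Medians also raised the calls lower over all genes, as given above. Between the tissues, 1 was higher with the fixed block, 5 with the random block, 0 with epithelial markers, 5 with array weights, 0 without the 2 low arrays, and 0 to 3 higher and 1 to 3 lower with each array left out. Of all genes, 2.31% were called higher there with the fixed block over all arrays and 3.67% with that of the pairs. The share was 4.7% with the random block, 1.58% with epithelial markers, 4.92% with array weights and 1.6% without the 2 low arrays. With each array left out it was 1.51% to 2.94%.

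Some small differences between adenocarcinoma and inflamed mucosa changed sign. Mad2l1 was 0.004 with the pair block and 0.0081 with medians, and Ttk was 0.0062 with medians. With each array left out, Mad2l1 ran from -0.3222 to 0.0943, Ttk from -0.2648 to 0.0517, Kif11 from -0.411 to 0.1326 and Mki67 from -0.0497 to 0.4648, and without the 2 low arrays Mki67 was -0.0497. Apart from settings that leave out arrays or genes, the cause was not tested. The number of pieces limits these counts, and signal over background was not used here.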
